A study of Mus musculus with 13 samples.

Results

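The genes described here build the protein uptake apparatus of the kidney proximal tubule: Lrp2, Cubn, Amn, Dab2, Clcn5, Lrpap1, Napsa and Lgmn. They were taken by symbol from the kidney table. All 8 were found among its 28183 genes and all 8 passed the filter on low values, which left 14637 genes. In the table of mIMCD-3 cells, which holds 2016 rows, 2 of the 8 had a row. The set was assembled with earlier results from these data known, so its size and makeup are not evidence.

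The proximal tubule reclaims nearly all protein that the glomerulus filters. Megalin (Lrp2), a giant receptor of the LDL receptor family, and cubilin (Cubn), a peripheral membrane protein anchored by amnionless (Amn), bind albumin, vitamin carriers and hormones at the brush border. The adaptor Dab2 links megalin to clathrin, the chloride-proton exchanger ClC-5 (Clcn5) supports acidification of endosomes, and the chaperone RAP (Lrpap1) guides megalin through the endoplasmic reticulum. Napsin A (Napsa) and legumain (Lgmn) are proteases of the lysosomes to which the cargo is delivered. Inherited loss of megalin, cubilin, amnionless or ClC-5 causes loss of protein in the urine.

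RNA-seq was made from whole kidneys of C57BL/6 mice in 2 models of polycystic kidney disease of the autosomal dominant kind. At postnatal day 10, KSP/Cre+;Pkd1f/f kidneys (Pkd1 knockouts) were set against KSP/Cre-;Pkd1f/f kidneys (Pkd1 controls), and at postnatal day 20, Pkhd1/Cre+;Pkd2f/f kidneys (Pkd2 knockouts) against Pkhd1/Cre-;Pkd2f/f kidneys (Pkd2 controls), with 2 libraries in each group. Controls thus carry the same floxed alleles as the knockouts and lack Cre. KSP/Cre is driven by the promoter of kidney-specific cadherin, which is active in tubule epithelium, and Pkhd1/Cre by that of fibrocystin, which is active in collecting ducts, so both models delete in part of the kidney's cells. 2 samples titled "(WT)" have the genotype Pkhd1/Cre+;Pkd2f/f, and the genotype was followed. The cultured cells were mIMCD-3, a line of the inner medullary collecting duct, transfected with 10 nM of a gapmer (an antisense oligonucleotide that directs RNase H) against Hoxb3os in 3 samples or of a negative control gapmer in 2, and harvested after 48 h. No label states that libraries of a group are separate animals or cultures, and a p-value here reflects only how far these libraries scatter, possibly for technical reasons.

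The reads behind the kidney values ran from 30.7 M to 94.4 M per library. The floxed genes are no check of the labels, since exons outside the deletion and cells without Cre still count: Pkd1 lay between 22.7 and 31.7 in all libraries and Pkd2 between 38.3 and 68.97. Summed Y-linked genes (4) were above 149 in Pkd1 control replicate 1, both Pkd1 knockouts and Pkd2 knockout replicate 1, at 10.4 in Pkd1 control replicate 2 and at most 0.104 in the other 3 libraries, so sex was not balanced. None of the 26 proximal tubule markers was at 0 in any library. Summed, they read 5238 and 5253 at day 10 in controls against 1161 and 2012 in knockouts, and 9856 and 10690 at day 20 in controls against 5690 and 2642 in knockouts. In whole kidneys, fewer cells of a type and less RNA per cell cannot be told apart, and this holds for every result below.

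Values are the deposited values per gene, scaled by library by the authors. Mitochondrial genes took a smaller share of the summed values in every knockout than in the controls of its model (22.05% and 22.5% against 27.4% and 38.7% for Pkd1, 34.7% and 30.1% against 41.4% and 41.3% for Pkd2), and small structural RNAs took 6.42% to 29.2%. With both classes left out, 6 and 4 of the 8 genes were called, as with them, with Lrp2 at -1.28 and -1.13. A change is a log2 fold change, knockout minus control, ± SE, computed on log2(value + 1), which understates low genes such as Amn. Adjusted p-values are Benjamini-Hochberg values over all 14637 genes from limma, and a gene is called at an adjusted p below 0.05.

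Most of the apparatus was lower in the knockouts. In the Pkd1 kidneys 6 of the 8 genes fell (Lrp2, Cubn, Amn, Dab2, Lrpap1 and Napsa), 0 rose and 2 (Clcn5 and Lgmn) were not called, with a median log2 fold change of -1.31. Of all genes tested, 5.48% were called lower and 5.11% higher there (10.6% in all), and their median change was -0.002. The same 6 genes had no overlap between groups, as did 29.2% of all genes on the lower and 29.1% on the higher side. In the Pkd2 kidneys 4 of the 8 fell (Lrp2, Cubn, Amn and Lrpap1), 0 rose and 4 were not called, with a median of -0.747, against 8.13% of all genes called lower, 9.54% called higher (17.7% in all) and a median of -0.008. Napsa joined them among 5 genes whose groups did not overlap, an order found in 30.9% of all genes on the lower and 31.9% on the higher side. The 4 genes that fell in both models stand against 3.04% of all genes. The difference between the models' effects was called for 0 of the 8 by limma, edgeR and DESeq2 alike (1 at an unadjusted p below 0.05), and limma called it for 0.00683% of all genes.

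**Figure D1:**
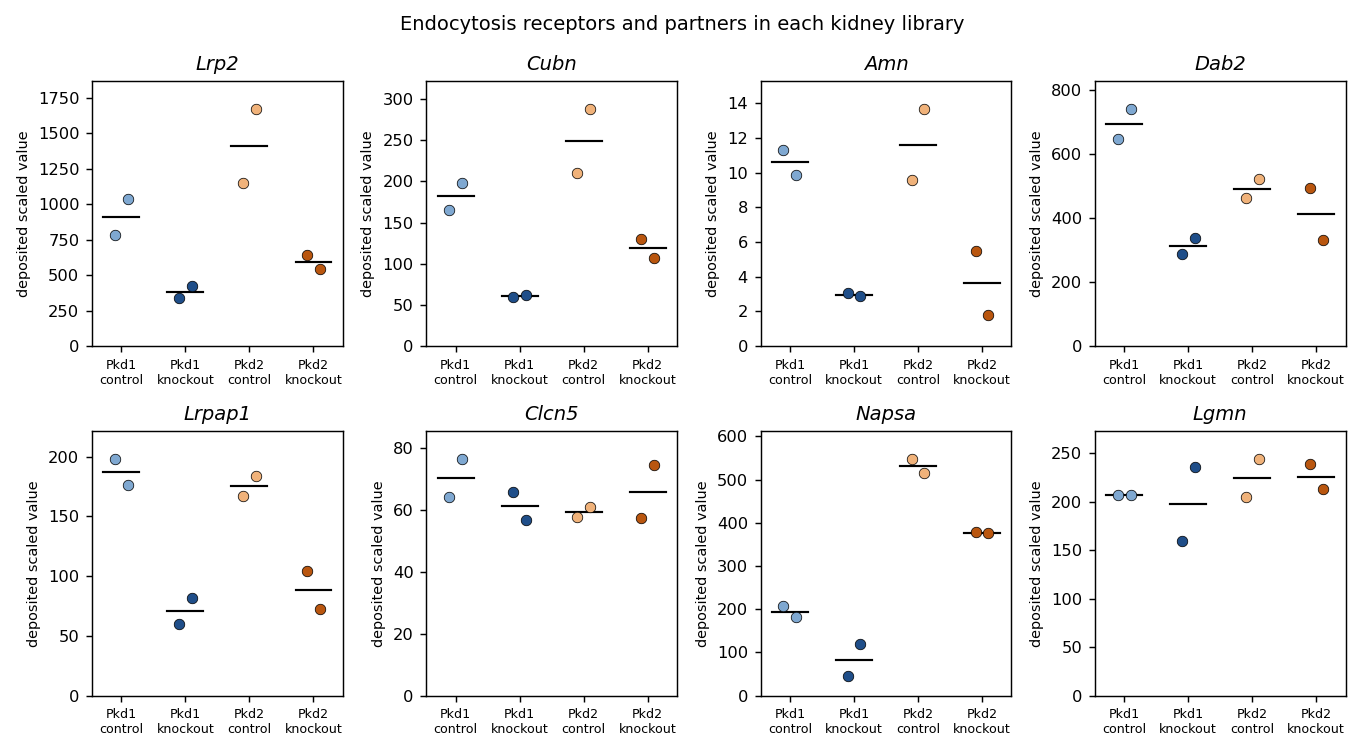
Deposited scaled value of each gene (vertical axis, linear, from 0) in the 8 kidney libraries by group, with points for libraries and a line at the mean of the 2. Lrp2, Cubn, Amn and Lrpap1 lie lower in both knockout groups than in the controls of their model, and Clcn5 and Lgmn overlap.

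The 4 genes that fell in both models are shown first by their promoters, since a shared change makes their upstream sequence of interest. The 250 bases before the RefSeq start (GRCm38.p6) are printed 5′ to 3′ in the direction of the gene, and capitals mark every match to a searched motif. Bases just after the start were found in GENCODE M21 transcripts for Lrp2, Amn and Lrpap1 but not for Cubn, whose RefSeq start lies upstream of the gene's annotated end at 13491813. The windows of Lrp2 and Lrpap1 reach into the annotated genes, which end at 69586065 and 35105766.
Lrp2, chr2:69586030-69586279, minus strand: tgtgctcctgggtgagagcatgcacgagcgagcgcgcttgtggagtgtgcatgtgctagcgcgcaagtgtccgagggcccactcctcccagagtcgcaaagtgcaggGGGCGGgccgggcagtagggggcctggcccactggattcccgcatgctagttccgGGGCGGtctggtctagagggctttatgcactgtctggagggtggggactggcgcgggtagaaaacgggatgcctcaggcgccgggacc
Cubn, chr2:13491877-13492126, minus strand: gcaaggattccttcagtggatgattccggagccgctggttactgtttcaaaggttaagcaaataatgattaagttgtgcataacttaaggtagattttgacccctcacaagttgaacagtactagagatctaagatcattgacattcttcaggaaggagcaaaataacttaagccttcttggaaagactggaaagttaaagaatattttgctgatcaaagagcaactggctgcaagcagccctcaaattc
Amn, chr12:111270846-111271095, plus strand: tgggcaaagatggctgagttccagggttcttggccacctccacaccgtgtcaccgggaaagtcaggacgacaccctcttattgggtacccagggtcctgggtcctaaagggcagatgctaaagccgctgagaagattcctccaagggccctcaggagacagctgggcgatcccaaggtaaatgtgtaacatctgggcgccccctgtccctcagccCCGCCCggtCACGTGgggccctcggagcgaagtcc
Lrpap1, chr5:35105700-35105949, minus strand: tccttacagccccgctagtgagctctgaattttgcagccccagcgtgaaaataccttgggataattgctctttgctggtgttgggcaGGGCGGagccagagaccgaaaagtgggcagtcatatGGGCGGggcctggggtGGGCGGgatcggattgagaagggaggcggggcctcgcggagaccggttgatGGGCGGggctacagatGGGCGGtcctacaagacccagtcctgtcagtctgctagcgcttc

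The windows were searched on both strands for short motifs, and the share of all 32851 promoter windows of that length holding each is given beside it. For the liver and kidney factor HNF4 the core CAAAGTCCA was used (0.384%), and for nuclear receptors the DR1 repeat (0.0335%). The E-box read by TFEB, a regulator of lysosomal genes, was searched as CACGTG (6.02%). Of general elements, the GC box was searched as GGGCGG (32.7%). The other general element was TATAAA (12.4%). The 4 promoters share no motif of this set. The GC box occurs 2 times before Lrp2, 5 times before Lrpap1, 1 time before Amn and 0 times before Cubn. In Lrpap1, those at -60 to -55 and -44 to -39 from the RefSeq start lie inside the annotated gene. The CACGTG of Amn lies 26 to 21 bases before its start. GC content was 66.4% for Lrp2, 61.2% for Amn, 60.8% for Lrpap1 and 39.6% for Cubn, against a median of 52.4% over all promoters. A match is a description and not a site, and no match says only that these letters are absent from this window.

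Megalin comes first as the receptor with the broadest range of ligands. Lrp2 (ENSMUSG00000027070.12) lies on the minus strand of chromosome 2 from 69424340 to 69586065 (mm10). In the Pkd1 model controls read 785 and 1035 and knockouts 339 and 426, and in the Pkd2 model controls read 1151 and 1669 and knockouts 645 and 542. Each knockout library thus lay below each control library of its model, and the groups did not overlap. Group means, control first, were 910 ± 176 and 383 ± 61.6 for Pkd1, then 1410.2 ± 366 and 593 ± 72.6 for Pkd2 (SD, n = 2 each). Lrp2 fell by 57.9% in both models, with log2 fold changes of -1.24 ± 0.29 (limma adjusted p = 0.032) and -1.23 ± 0.29 (limma adjusted p = 0.023). The difference between these effects was -0.015 ± 0.42, with a 95% confidence interval from -0.96 to 0.93, a wide range, so that similar falls are not shown to be equal.

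Cubilin, the receptor for intrinsic factor with vitamin B12 and, with megalin, for albumin, moved in parallel. Cubn (ENSMUSG00000026726.10) is on the minus strand of chromosome 2 from 13276338 to 13491813. Pkd1 controls read 165 and 198 and their knockouts 60.01 and 62.1, while Pkd2 controls read 210.2 and 287 and their knockouts 130.2 and 107. Again no knockout library reached a control of its model. Cubn fell by 66.4% in Pkd1 kidneys (log2 fold change -1.55 ± 0.21, limma adjusted p = 0.0044) and fell by 52.4% in Pkd2 kidneys (-1.05 ± 0.21, limma adjusted p = 0.012). The ratio of the Lrp2 to the Cubn value stayed between 4.75 and 6.87 over all 8 libraries, while Lrp2 itself ranged from 339 to 1669. In its annotated span Cubn is overlapped on the opposite strand by Gm13270, which was at 0.336 to 0.765, a small part of the Cubn value.

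Amnionless, the membrane anchor without which cubilin does not reach the brush border, had the largest percent fall of the 8 in each model. Amn (ENSMUSG00000021278.6) spans 111271111 to 111276426 on the plus strand of chromosome 12. Controls of the Pkd1 model read 11.3 and 9.88 against 3.04 and 2.88 in knockouts, and controls of the Pkd2 model 9.59 and 13.7 against 5.49 and 1.804 in knockouts. The knockout libraries were all below the controls of their model, and those of the Pkd2 model were far apart from each other. Between 78 and 1378 reads stood behind each of these values. On the log2 scale the change was -1.55 ± 0.35 in both models (limma adjusted p = 0.027 for Pkd1 and 0.019 for Pkd2). The mean fell by 72.1% in Pkd1 and fell by 68.6% in Pkd2 kidneys. Without Pkd2 knockout replicate 2 the Pkd2 change was -0.94 (limma adjusted p = 0.056), and without Pkd2 knockout replicate 1 it was -2.15. The Cubn to Amn ratio lay between 14.6 and 23.7 in 7 libraries and was 59.15 in Pkd2 knockout replicate 2.

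Lrpap1, the chaperone that keeps newly made megalin from binding ligands early, fell with its client. The gene (ENSMUSG00000029103.14) is on the minus strand of chromosome 5 from 35091501 to 35105766. It stood at 198 and 176 in controls against 59.7 and 81.3 in knockouts for Pkd1, and at 167 and 184 against 105 and 72.3 for Pkd2. The groups did not overlap in either model. Lrpap1 fell by 62.3% in Pkd1 kidneys (-1.41 ± 0.23, limma adjusted p = 0.0082) and fell by 49.6% in Pkd2 kidneys (-1.002 ± 0.23, limma adjusted p = 0.021). In the authors' deposited table, which gives control minus knockout, Lrpap1 is at 1.41 (adjusted p = 0.0034) for Pkd1 and at 0.99 (adjusted p = 0.061) for Pkd2, so the Pkd2 call rests on the test used. For the other 7 genes, the authors' deposited table and limma put each gene on the same side of 0.05 in both models.

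Dab2, which carries megalin into clathrin-coated pits, was lower in the Pkd1 model and not called in the Pkd2 model. The gene (ENSMUSG00000022150.14) runs from 6299788 to 6440712 on the plus strand of chromosome 15. For Pkd1, controls read 647 and 739 and knockouts 288 and 338, with no overlap. For Pkd2, controls read 461 and 522 and knockouts 493 and 332, where replicate 1 lay between the controls and replicate 2 below both. The change was -1.15 ± 0.26 (limma adjusted p = 0.027) against -0.28 ± 0.26 (limma adjusted p = 0.49). The difference between these effects was -0.87 ± 0.36, and its unadjusted p of 0.041, the only one of the 8 below 0.05, did not pass over all genes (limma adjusted p = 0.56), so the models were not shown to differ. The Lrp2 to Dab2 ratio was 2.499 and 3.197 in the Pkd2 controls and between 1.18 and 1.63 in the other 6 libraries.

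Clcn5, the endosomal exchanger whose loss causes Dent disease, showed no called change. It lies on the minus strand of the X chromosome from 7153810 to 7319358 (ENSMUSG00000004317.12). Pkd1 controls read 64.1 and 76.5 and knockouts 65.7 and 56.7, and Pkd2 controls read 57.9 and 61.1 and knockouts 57.5 and 74.5. The groups overlapped in both models. Its change was -0.19 ± 0.19 (95% confidence interval from -0.63 to 0.24, limma adjusted p = 0.55) for Pkd1 and 0.14 ± 0.19 (from -0.30 to 0.57, limma adjusted p = 0.66) for Pkd2. Neither interval reaches the estimate for Lrp2 in the same model. The interval of Lrp2 itself ran from -1.91 to -0.57 for Pkd1, overlapping that of Clcn5, and from -1.90 to -0.56 for Pkd2. A difference between these genes was not tested.

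Of the lysosomal proteases, Napsa was called in the Pkd1 model alone and Lgmn in neither, and a difference between them was not tested. Napsa (ENSMUSG00000002204.8, chromosome 7, plus strand, 44572432 to 44586862) encodes an aspartic protease of kidney and lung. Pkd1 controls read 208 and 181 and knockouts 45.7 and 119, far apart from each other but both below the controls. Pkd2 controls read 547 and 514 and knockouts 378 and 376, below the controls without overlap. Napsa changed by -1.38 ± 0.37 in the Pkd1 model, close to the threshold (limma adjusted p = 0.049), and -0.49 ± 0.37 in the Pkd2 model (limma adjusted p = 0.40). The Pkd1 call held under 6 of 17 alternatives. It was lost with edgeR (edgeR adjusted p = 0.079), a pseudocount of 0.1 (limma adjusted p = 0.051), no filter (0.14), the 4 Pkd1 libraries alone (0.073), the replicate block (0.058), the sex covariate (0.08) and 5 of the 8 omissions of a library. Without Pkd1 knockout replicate 1 the first was -0.70 (limma adjusted p = 0.19) and without replicate 2 it was -2.06.

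Lgmn (ENSMUSG00000021190.12, chromosome 12, minus strand, 102394084 to 102439813) encodes the asparaginyl endopeptidase that matures cathepsins. Pkd1 controls read 207.2 and 206.6 and knockouts 159 and 236, and Pkd2 controls read 205 and 244 and knockouts 239 and 213. The groups overlapped in both models. Lgmn differed by -0.095 ± 0.23 (95% confidence interval from -0.62 to 0.43, limma adjusted p = 0.82) and 0.012 ± 0.23 (from -0.51 to 0.54, limma adjusted p = 0.98). Lgmn and Dab2 are also made by macrophages. The 16 macrophage markers summed to between 58.45 and 70.35 in the 4 control libraries, to 197.7 and 182.5 with Pkd1 loss and to 306.5 and 367.9 with Pkd2 loss, and none was at 0 in any library. Their part in the values of Lgmn and Dab2 was not tested.

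**Figure D2:**
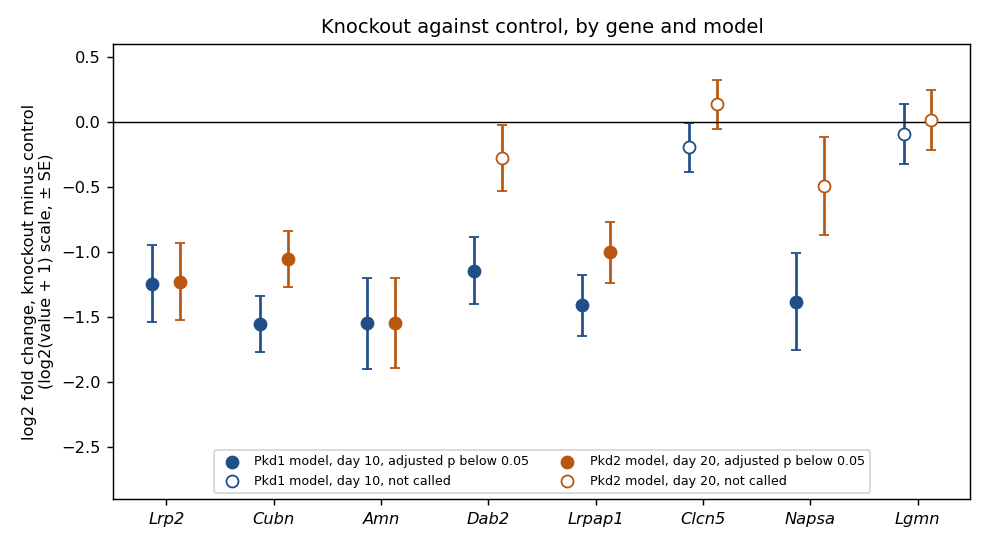
Log2 fold change (knockout minus control, ± SE, 2 libraries per group) of each gene in the Pkd1 and Pkd2 models, filled where called by limma and open where not. Lrp2 and Amn have nearly equal changes in both models (-1.24 and -1.23, -1.55 and -1.55), and Clcn5 and Lgmn lie near 0.

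Which falls were called depended on single libraries, while no called gene changed direction under any of the 17 alternative settings. In the Pkd1 model Cubn was called under all 17 (largest limma adjusted p = 0.047). Leaving out any 1 of the 4 Pkd1 libraries ended the calls of Lrp2 (log2 fold change from -1.44 to -1.04), Amn (-1.64 to -1.46), Dab2 (-1.26 to -1.03) and, except without knockout replicate 2, Lrpap1 (-1.49 to -1.19) and Napsa, and leaving out either Pkd2 control ended those of Lrp2, Dab2 and Napsa. In the Pkd2 model, leaving out control replicate 1 ended the calls of Lrp2 (-1.5), Amn (-1.78) and Lrpap1 (-1.07). Leaving out control replicate 2 or knockout replicate 2 ended all 4 (in that order Lrp2 -0.96 and -1.10, Cubn -0.83 and -0.91, Amn -1.31 and -0.94, Lrpap1 -0.93 and -0.74). A covariate for sex was taken from the Y-linked genes, with Pkd1 control replicate 2 (summed 10.4) counted as female. With this covariate the changes of Lrp2 were -1.21 (limma adjusted p = 0.064) in Pkd1 and -1.19 (0.053) in Pkd2, past the threshold in neither. Napsa was at -1.43 (limma adjusted p = 0.08) in Pkd1 with it, so that 4 of the 8 genes instead of 6 were called there and 3 instead of 4 in Pkd2. With quantile scaling the Pkd2 change of Lrp2 was -0.76 (limma adjusted p = 0.083).

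Levels between genes are compared per kilobase of exon (union of GENCODE M21 exons), since longer transcripts give more reads. In the Pkd1 controls at day 10, the value per kilobase was 94.4 ± 8.82 for Dab2, 89.1 ± 0.187 for Lgmn, 73.2 ± 7.27 for Napsa, 54.5 ± 10.6 for Lrp2, 45.4 ± 3.76 for Lrpap1, 12.2 ± 1.55 for Cubn, 6.14 ± 0.764 for Clcn5 and 5.75 ± 0.544 for Amn (SD, n = 2). Dab2 and Lgmn, Lrp2 and Lrpap1, and Clcn5 and Amn did not differ beyond their spread. In the Pkd2 controls at day 20 it was 199.55 ± 8.75 for Napsa, 96.5 ± 11.9 for Lgmn, 84.4 ± 21.9 for Lrp2, 66.9 ± 5.90 for Dab2, 42.6 ± 2.95 for Lrpap1, 16.7 ± 3.65 for Cubn, 6.31 ± 1.56 for Amn and 5.19 ± 0.199 for Clcn5. Lgmn, Lrp2 and Dab2 did not differ as neighbours beyond their spread there, nor did Amn and Clcn5. Cubn was thus several times less abundant than its partner megalin and more abundant than its anchor Amn at both ages.

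Between the control groups, which differ in age and in the floxed gene, 1 of the 8 genes was called. Napsa was higher at day 20 (531 ± 23.3 against 195 ± 19.3, 2.73 times, log2 difference 1.44 ± 0.37, limma adjusted p = 0.038), where 5.04% of all genes were called higher and 7.26% lower (12.3% in all). That call was held under 10 of 17 alternatives. Lrp2 and Cubn lay higher in both day 20 controls than in both day 10 controls (0.62 ± 0.29, limma adjusted p = 0.22, and 0.44 ± 0.21, limma adjusted p = 0.23), an order found in 31.1% of all genes. Dab2 and Clcn5 lay lower in both (-0.49 ± 0.26, limma adjusted p = 0.26, and -0.23 ± 0.19, limma adjusted p = 0.49), as did 31.2% of all genes. This comparison shares its control libraries with the knockout comparisons.

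How far the genes followed the rest of the proximal tubule is given by the log2 value of each minus the mean log2 value of the 26 markers in the same library. For Lrp2, Pkd1 controls gave 3.04 and 3.505 and knockouts 3.702 and 3.54, and Pkd2 controls gave 2.69 and 3.05 and knockouts 2.605 and 3.35. The mean difference, knockout minus control, was 0.35 and 0.11 for Lrp2, 0.041 and 0.28 for Cubn, 0.046 and -0.21 for Amn and 0.18 and 0.33 for Lrpap1 in the Pkd1 and Pkd2 models. In these 4 genes the mean difference thus ran from -0.21 to 0.35. Both Pkd1 knockouts of Lrp2 lay above both Pkd1 controls on this measure. For Amn, a low gene, log2(value + 1) understates the fall. For Clcn5 the difference was 1.399 and 1.47 and for Lgmn 1.499 and 1.35, so both stood higher against the markers in the knockouts. The marker mean itself read 6.58 and 6.51 in Pkd1 controls against 4.71 and 5.20 in knockouts. For Pkd2 it read 7.48 and 7.66 against 6.73 and 5.74. Any gene without a change therefore stands higher on this measure, so nothing particular to Clcn5 and Lgmn is read from it. For Dab2 the difference was 0.45 and 1.06. Napsa gave 0.21 in the Pkd1 model, within the range of the 4 genes above, and 0.84 in the Pkd2 model. These differences are given as a description with no test.

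**Figure D3:**
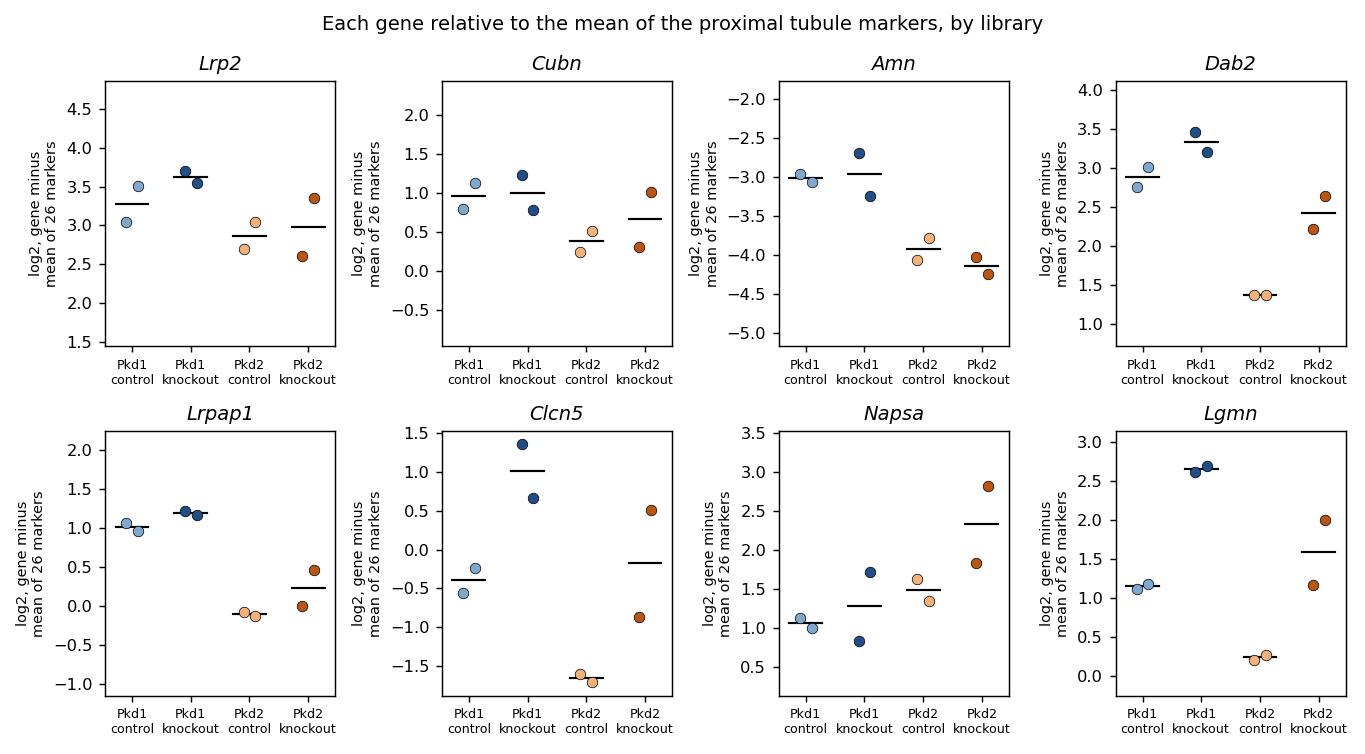
Log2(value + 1) of each gene minus the mean log2(value + 1) of the 26 proximal tubule markers in the same library, with points for libraries and a line at the mean of the 2. All panels span the same range, and Clcn5 and Lgmn stand higher in the knockouts of both models while Cubn and Amn change little. The marker mean is lower in the knockouts, so any gene without a change stands higher there.

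Of the 26 markers themselves 14 fell in each model, 11 of them in both, and 9 were called in neither (median -1.67 for Pkd1 and -1.38 for Pkd2). The 14 are 53.8% of the list, beside 5.48% and 8.13% of all genes called lower. Among those that fell in the Pkd1 model were the glucose carrier Slc5a2 (-2.52 ± 0.29), the phosphate carrier Slc34a1 (-2.32 ± 0.28), the organic anion carrier Slc22a8 (-1.73 ± 0.23) and the dicarboxylate carrier Slc13a3 (-2.63 ± 0.37). In the Pkd2 model Slc22a8 (-1.57 ± 0.23), the creatine enzyme Gatm (-1.85 ± 0.30), Slc34a1 (-1.68 ± 0.28) and Slc34a3 (-1.91 ± 0.33) fell. The count of markers called lower ran from 3 to 22 in Pkd1 and from 1 to 22 in Pkd2 over the alternatives, and 0 were called higher in any.

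Of all genes, 5.48% were called lower and 5.11% higher in the Pkd1 model, and 8.13% lower and 9.54% higher in the Pkd2 model. The general machinery of clathrin-coated vesicles and early endosomes is set beside these shares. Of its 32 genes, 0 were called in the Pkd1 kidneys by limma (median 0.002; 2 higher and 3 lower at an unadjusted p below 0.05; 0 by edgeR and 1 by DESeq2), with the signal adaptor Appl1 at 0.55 ± 0.17 (limma adjusted p = 0.081) and the AP-2 subunit Ap2b1 at 0.66 ± 0.22 (limma adjusted p = 0.094). Over the alternatives up to 2 were called in each direction. In the Pkd2 kidneys 2 fell (6.25%, near the share of all genes) and 30 were not called (median -0.144). Those that fell were the clathrin light chain Cltb (-0.72 ± 0.20) and the inositol phosphatase Inpp5b (-0.63 ± 0.18). Of 16 tested genes of the LDL receptor family and its helpers, the reelin receptor Lrp8 was called higher in both models (1.495 ± 0.34 and 1.25 ± 0.34). Lrp8 lay near the floor, at 0.76 to 1.13 in controls against 2.10 to 6.13 in knockouts. It passed the filter only through the knockouts, so no rise is read from its call. Lrp3 fell in the Pkd1 model (-0.80 ± 0.18). Lrpap1, which is counted in this family list too, was its other called member, and 13 and 14 were not called. Of the list, 12.5% and 6.25% were called lower and 6.25% higher in each model. With lists this small, no result about them is read from these counts.

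For endosome acidification 5 of 23 genes fell in the Pkd1 kidneys and 4 in the Pkd2 kidneys, the other 18 and 19 were not called, and the medians were -0.278 and -0.47. These are 21.7% and 17.4% of the list, beside 5.48% and 8.13% of all genes called lower. The apical sodium-proton exchanger Slc9a3 fell in both (-1.32 ± 0.24 and -2.10 ± 0.24), as did its scaffold Slc9a3r1 (-1.24 ± 0.20 and -0.91 ± 0.20) and the lysosomal exchanger Clcn6 (-0.98 ± 0.16 and -0.57 ± 0.16), a relative of Clcn5. The proton pump subunits Atp6v0c (-0.99 ± 0.19, Pkd1) and Atp6v1e1 (-0.76 ± 0.22, Pkd2) were called in the model named. Slc9a3 and Slc9a3r1 are also known for sodium transport at the brush border.

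Of 33 lysosomal genes 4 rose (12.1%) and 2 fell (6.06%) in each model, with medians of -0.348 and -0.136. Of all genes 5.11% rose and 5.48% fell in the Pkd1 model, and 9.54% rose and 8.13% fell in the Pkd2 model. The list's shares were near those of all genes in the Pkd2 model, as was its share of falls in the Pkd1 model. The cathepsins Ctss (1.91 ± 0.23 and 3.00 ± 0.23), Ctsc (1.31 ± 0.18 and 1.57 ± 0.18) and Ctsd (0.99 ± 0.21 and 1.21 ± 0.21) rose in both, and Scarb2 (0.91 ± 0.18) rose in the Pkd1 and Gusb (0.68 ± 0.17) in the Pkd2 kidneys. Hexa (-0.87 ± 0.17), which degrades gangliosides, was among the falls in the Pkd1 model, and Lipa (-0.82 ± 0.19) and Ctsf (-0.85 ± 0.23) fell in the Pkd2 model. Ctss and Ctsc are enzymes of immune cells, and the macrophage markers named above rose with them: 14 of 16 in the Pkd1 and 16 of 16 in the Pkd2 kidneys, among them Mrc1 (2.02 ± 0.19 and 2.68 ± 0.19) and C1qa (1.59 ± 0.16 and 2.4 ± 0.16). Their part in the lysosomal calls was not tested. Of these markers, Cd14 was counted in both models and read 0.50 to 1.25 in controls. It passed the filter only through the knockouts, so no rise is read from its call.

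Among ligands of megalin and cubilin and the genes that handle them, 5 of 19 fell and 1 rose in the Pkd1 kidneys, and 6 fell and 2 rose in the Pkd2 kidneys. For comparison, 5.48% of all genes fell and 5.11% rose in the Pkd1 model. In the Pkd2 model 8.13% of all genes fell and 9.54% rose. The list's share of falls was above that of all genes in both models. Its share of rises was near that of all genes, so nothing about the list is read from the count of rises. Dio1, which activates thyroid hormone (-2.06 ± 0.35 and -1.84 ± 0.35), and the vitamin D receptor Vdr (-0.86 ± 0.23 and -1.16 ± 0.23) fell in both. The vitamin B12 carrier Tcn2 fell in both as well (-1.42 and -1.13). The retinol and thyroxine carrier Ttr (-1.22 ± 0.25) was among the falls in the Pkd1 model, and Cyp24a1, which inactivates vitamin D (-1.81 ± 0.31), and Alb (-3.72 ± 0.59) in the Pkd2 model. Alb was low and scattered, at 18.2 and 11.7 in Pkd2 controls and 0.39 and 0 in their knockouts. Pkd1 controls read 0.73 and 7.22 for Alb. These are RNA values of the kidney and do not measure the filtered proteins. The ligand Lcn2, a lipocalin released by injured tubules, rose in both (3.77 ± 0.31 and 6.01 ± 0.31), and Clu rose in the Pkd2 kidneys (3.10 ± 0.34).

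**Figure D4:**
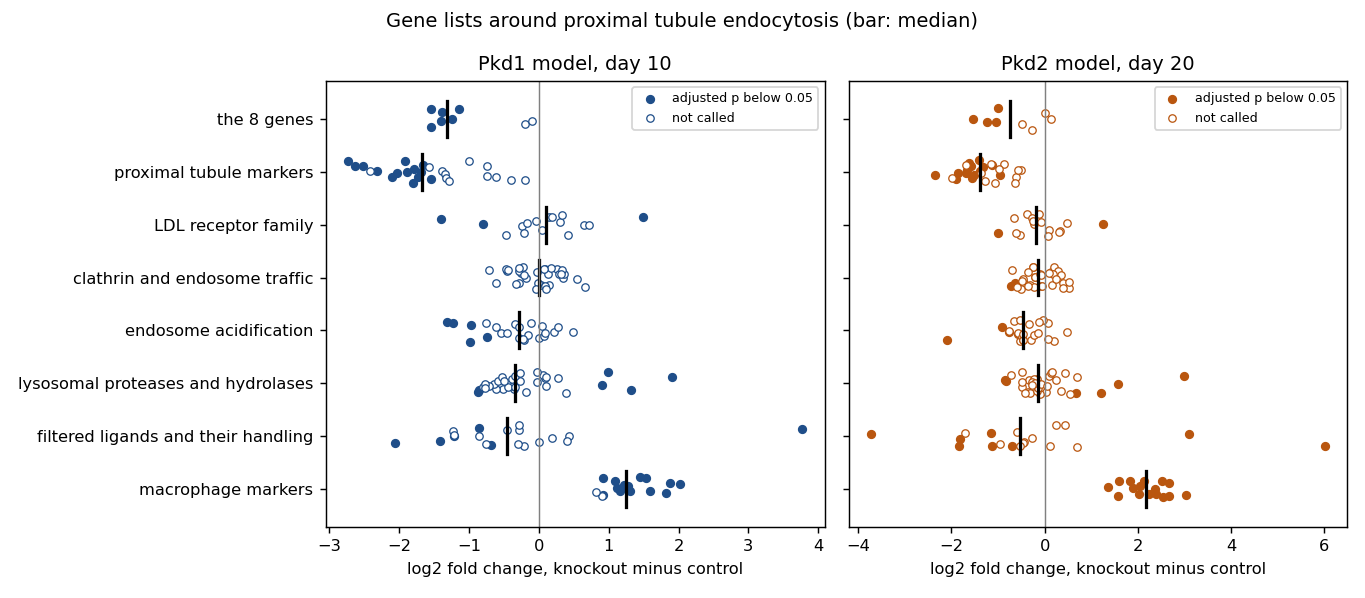
Log2 fold change (knockout minus control) of every tested gene of 8 lists in the Pkd1 (left) and Pkd2 (right) model, filled where called by limma and open where not, with a bar at the list's median. The 8 genes and the proximal tubule markers lie mostly below 0, clathrin and endosome genes lie around 0, and macrophage markers lie above 0.

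Genes whose pattern over the 8 kidney libraries was most like that of a member were ranked by the root mean square difference of log2 values, each gene centred on its own mean, among 9520 genes with a mean value of at least 5. Nearest to Lrp2 were Afm (0.137), Fgfr3 (0.145), Cubn (0.153), Echdc3 (0.173) and Adra1a (0.177), in log2 units. Nearest to Cubn were Afm (0.131), Slc43a2 (0.140) and Lrp2 (0.153), so each receptor stood among the 3 nearest genes of the other. Tcn2 (0.0741), Slc4a9 (0.122) and Ush1c (0.139) were nearest to Lrpap1, and Ybx2 (0.165), Tle2 (0.194) and Cox8a (0.226) to Amn. For Dab2 they were Rhobtb1 (0.130), Palm (0.167) and Clcn6 (0.172), and for Napsa Hao2 (0.298), Hgd (0.318) and Ugt1a2 (0.322). Clcn5 (Sesn3 at 0.0699, Nek1 at 0.0715 and Trim32 at 0.0767) and Lgmn (Fez2 at 0.083, Cables1 at 0.0984 and Tprn at 0.0985) varied little, which makes small differences from other flat genes common. Libraries share groups, so this likeness carries the group differences above.

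Markers of other cell types give the setting of these kidneys. Beside their counts, 5.48% of all genes fell and 5.11% rose in Pkd1, and 8.13% fell and 9.54% rose in Pkd2. In the Pkd1 and Pkd2 models, 5 and 7 of 9 thick ascending limb markers fell, with Egf at -3.66 ± 0.27 and -3.51 ± 0.27. Of 10 podocyte markers 7 and 4 fell and 0 and 1 rose, with Nphs1 at -1.57 ± 0.19 and -0.90 ± 0.19. Of 14 collecting duct markers 3 and 4 rose (21.4% and 28.6%) and 2 and 3 fell (14.3% and 21.4%). Of 12 endothelial markers 4 and 1 fell (33.3% and 8.33%), the latter near the share of all genes. Fibroblast markers rose in 5 and 6 of 12, with Acta2 at 2.08 ± 0.21 and 2.4 ± 0.21. Injured tubule markers rose in 4 and 11 of 12, with Krt18 at 2.55 ± 0.23 and 3.06 ± 0.23. Havcr1, counted among the 11, reached 1 only in knockouts (at most 0.31 in controls). It passed the filter through them, so no rise is read from its call. Of lymphocyte markers 2 of 11, Cd79b and Cd4, passed the filter, and 1 and 2 were called higher. Cd79b reached 1 only in knockouts (at most 0.68 in controls) and Cd4 only in Pkd2 knockouts (at most 0.83 elsewhere). They passed the filter through the groups where they are high, so no rise is read from them. Of 7 tested adrenal and fat markers, 0 and 2 fell. The part of these cells in the results above was not tested.

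In the mIMCD-3 cells, Clcn5 and Dab2 had rows. The authors' table holds only genes with an adjusted p below 0.05, so a gene without a row is not analysed here. Clcn5 was at 3801 and 3952 with the control gapmer and at 4294, 4460 and 4483 with the Hoxb3os gapmer, in scaled reads. Dab2 was at 2672 and 3020 with the control gapmer and at 3154, 3218 and 3219 with the Hoxb3os gapmer. In both genes every Hoxb3os gapmer library lay above both controls, as in 44.4% of the table's 2016 rows, while 55.5% had every such library below both controls. By the authors' log2 values 44.4% of rows were higher and 55.6% lower, so nothing particular to these genes is read from the order. The means were 13.8% higher for Clcn5 (4412 ± 103, n = 3, against 3877 ± 107, n = 2) and 12.3% higher for Dab2 (3197 ± 37.0 against 2846 ± 246). The authors' deposited table gives log2 values of 0.17 (adjusted p = 0.0016) and 0.15 (adjusted p = 0.035), Hoxb3os gapmer minus control. No test was run here, since the table's genes were chosen by this same contrast.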

How the data were processed

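Kidney and cell RNA was prepared with Trizol and TruSeq reagents, per the labels' protocols. For the kidneys the submitters' processing notes list edgeR, RSEM 1.2.22, Cufflinks 2.2.1, STAR 2.4.2a, FastQC 0.11.2 and build mm10; for the cells they list DESeq2 1.12.3, SAMtools 1.0, STAR 2.4.2a and Trimmomatic 0.32. Of tool roles, annotation and strand setting nothing is given in the sources used here. Reads of genes on opposite strands (Cubn and Gm13270, Napsa and Gm15396, Dab2 and Gm16311) may therefore be mixed.

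The authors' deposited signal is reads per gene scaled by library. Between 98.6% and 99.2% of low kidney values per library were whole multiples (within 0.02) of 1 read; Pkd1 control replicate 1 also holds values below 1 read. The authors' deposited log2 changes are positive where control kidneys are higher, and the deposited p-values are adjusted, per the file headers.

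limma 3.58.1 (trend, R 4.3.3) was fitted once to log2(value + 1) of all 8 kidney libraries (4 residual and 4.77 prior degrees of freedom), keeping genes that reach 1 in 2 or more libraries, and was tested on simulated data. edgeR 4.0.16 and DESeq2 1.42.0 on recovered reads were among the alternatives. Named are the 8 genes, per list, direction and model up to 4 called genes of smallest adjusted p (or 2 where none was called), and nearest neighbours. Clcn4 and Selenop had no single row. RefSeq promoters matched 7 of the 8 genes. Members and lists were chosen with earlier results of these data known. Results for some genes and motifs are not reported here.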

Additional observations from a re-analysis of the deposited data

How the results depend on the processing

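With 2 libraries a group, counts of calls moved with the settings. Without a filter on low values, genes called fell from 1550 to 790 in the Pkd1 comparison, and called genes of the 8 went from 6 to 2 there and from 4 to 1 in the Pkd2 comparison. Fitted on its own 4 libraries, the Pkd2 comparison called 1379 genes instead of 2587 and 1 of the 8 instead of 4, and the age comparison 3093 instead of 1801. Leaving out 1 library gave 325 to 2474 genes (1 to 6 of the 8) for Pkd1, 621 to 4253 (0 to 4) for Pkd2, 403 to 2553 (0 to 1) for age and 0 to 26 for the difference between models. That difference, called for 1 gene, was called for 8 with quantile scaling, 18 with mitochondrial and small structural RNAs left out, 5 with a pseudocount of 0.1, 5 by edgeR, 184 by DESeq2 and 0 without a filter, with a replicate block or with a covariate for sex. Napsa's age call was lost (0 of the 8) with quantile scaling, without a filter and with the covariate for sex.

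With the replicate block, 1231 and 2200 genes were called in the Pkd1 and Pkd2 comparisons, with 5 and 4 of the 8; Napsa in Pkd1 was the 1 lost (limma adjusted p = 0.058). No label pairs same-numbered libraries; the correlations of their deviations over the 6 pairs of groups ran from -0.378 (Pkd1 control and knockout) to 0.339 (both knockouts), with -0.049 within Pkd2.

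Changes of sign touched uncalled values alone. Lgmn in Pkd2 was -0.013 by edgeR and -0.03 with the sex covariate. The difference between models was 0.027 (quantile scaling) and 0.02 (pseudocount 0.1) for Amn and 0.00045 (edgeR) for Lrp2. By age, Lgmn was -0.11 with quantile scaling, Amn -0.025 and Lgmn -0.033 without mitochondrial and small structural RNAs, and Lrpap1 0.084 with the sex covariate. Leaving out 1 library, Lgmn ranged from -0.38 to 0.19 (Pkd1), -0.11 to 0.14 (Pkd2), -0.39 to 0.18 (difference) and -0.015 to 0.23 (age), Dab2 from -0.56 to 0.0081 and Clcn5 from -0.048 to 0.32 in Pkd2, Lrp2 from -0.28 to 0.25 and Amn from -0.61 to 0.6 in the difference, and Amn from -0.13 to 0.34 by age. Leaving out mitochondrial and small structural RNAs shifted the median of all genes to -0.126 in the difference and -0.128 by age. The causes were not tested.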

Other observations

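Of 15 transcription factors of the proximal tubule, 4 fell in the Pkd1 kidneys and 5 in the Pkd2 kidneys, and 0 rose in either. Of all genes 5.48% and 8.13% fell. Emx1 (log2 fold change -1.54 ± 0.33 and -1.40 ± 0.33) and Hnf4a (-1.25 ± 0.27 and -1.09 ± 0.27), a regulator of tubule identity, fell in both. Maf (-1.37 ± 0.31) was among the falls in the Pkd1 model. Ppargc1a (-1.28 ± 0.23), Ppara (-1.25 ± 0.26) and Esrra (-1.20 ± 0.28), regulators of mitochondria and fat oxidation, fell in the Pkd2 model. The differences between models were not called for any of the 15.

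In the authors' deposited table of the mIMCD-3 cells, 4 of the 17 genes of the list of Lrp2 relatives and helpers had a row, among them Sorl1 at -0.67 and Lrp8 at 0.26 (log2, Hoxb3os gapmer minus control). Of all rows 44.4% were higher and 55.6% lower. Of the 24 acidification genes 8 had a row, 2 higher and 6 lower, among them the endosomal exchanger Clcn3 at -1.07, a relative of Clcn5, which was itself higher. Of the 33 lysosomal genes 6 had a row, 2 higher and 4 lower, with Lamp2 at -0.28.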
